A study of Mus musculus with 9 samples.

Results

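The outer surface of the skin is sealed by dead, flattened keratinocytes, each wrapped in a shell of cross-linked protein called the cornified envelope. The 60 genes described here encode the proteins of that shell, the enzymes that cross-link and trim it, and the lipid-handling enzymes of the skin barrier. They were chosen by name, with earlier results of these data known. The list holds all protein-coding genes whose symbols begin with Sprr (15 genes) or Lce (21 genes). It also holds 24 single genes, from loricrin (Lor) and filaggrin (Flg) to Cdsn. Together these genes are 60 of the 49672 rows of the expression table.

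As keratinocytes leave the basal layer they switch on keratins Krt1 and Krt10, and later the envelope genes. Many of these genes sit side by side in the epidermal differentiation complex, which in the mouse lies on chromosome 3. Small proline-rich proteins (Sprr), late cornified envelope proteins (Lce), loricrin and involucrin are laid down beneath the cell membrane and joined by transglutaminases. Filaggrin and its relatives bundle keratin, and proteases then free and shed the outermost cells.

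RNA was measured in cells that were sorted out of the epidermis on postnatal day 0, from mice carrying a Sox2-GFP reporter. GFP-positive cells are labelled Merkel cells, which sense light touch in the skin (3 libraries), and GFP-negative cells that were double positive for the surface proteins SCA1 and CD49F are labelled basal keratinocytes (6 libraries). The reporter is shared by both groups, and the labels give no other allele or treatment. For each of the sample numbers 1 to 3 there are 1 Merkel library and a pair of basal ones, named first and second basal below. The labels do not say how first and second differ, or whether a number stands for an animal, a litter or a pool, so the p-values measure only the spread between these samples, part of which may be technical.

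All values are TPM, a transcript abundance per length that sums to the same total in each library. TPM keeps no read depth, so the depth behind each value is unknown and no counting interval can be given. All 8 Merkel cell markers checked (Sox2, Atoh1, Isl1, Krt8, Krt18, Krt20, Pou4f3, Insm1) were higher in Merkel libraries, with a summed level of 859 to 1140 TPM against 1.95 to 4.61 TPM in basal libraries. Of 7 basal keratinocyte markers 5 were lower in Merkel libraries (summed 5978 to 6896 TPM, against 14778 to 19590 TPM). The suprabasal keratins, which basal cells are known to make little of, were plentiful everywhere: Krt1, Krt10 and Krt77 summed to 4297 to 8389 TPM in Merkel, 4146 to 7688 TPM in first basal and 4829 to 8430 TPM in second basal libraries, and none of the 3 was called between groups. Mitochondrial and small RNA genes took 40.6% to 53.4% of all TPM, most in Merkel 2. In bulk RNA, fewer cells of a type and less RNA per cell cannot be told apart.

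**Figure D1:**
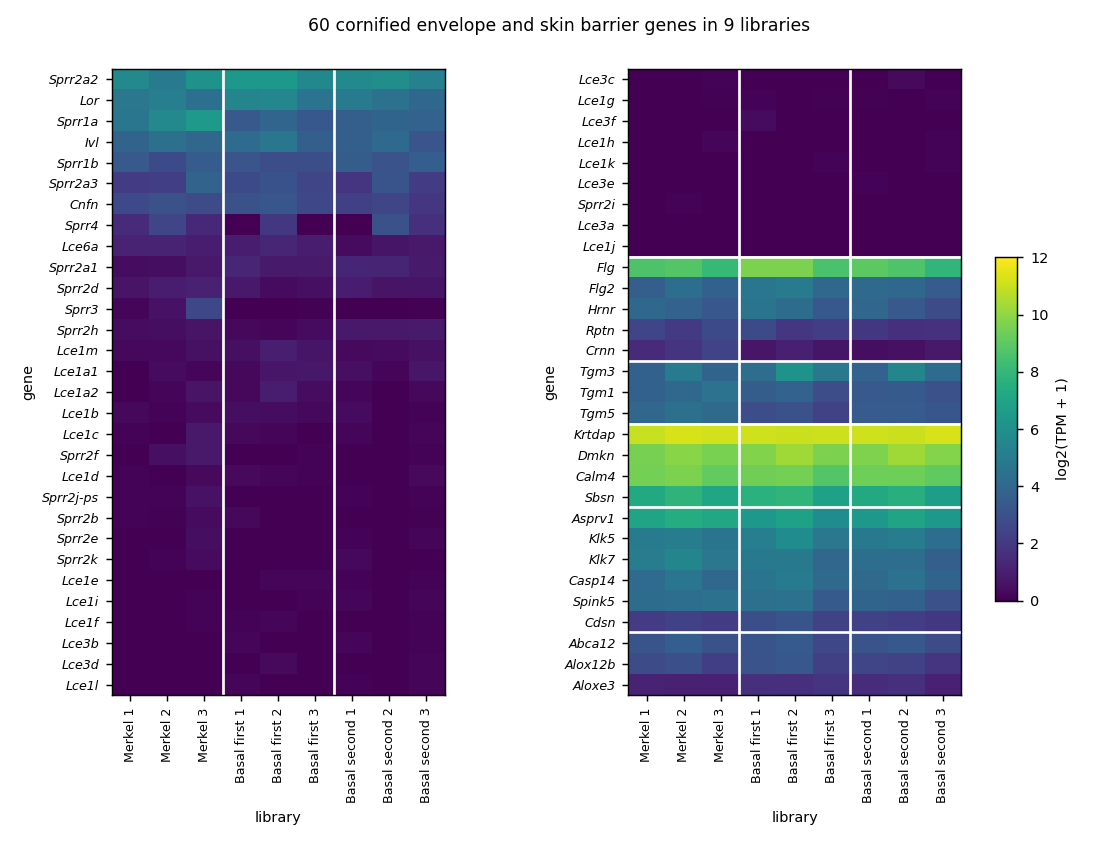
Level of each of the 60 genes (rows, by role and then by mean level) in each of the 9 libraries (columns), as log2(TPM + 1) from dark (0) to yellow (12). White lines separate the 3 groups of libraries and the 6 roles; the Lce rows are dark throughout, and Krtdap is the brightest row in every library.

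The genes were present in Merkel and basal libraries alike. Their summed level was 4503 to 5447 TPM in Merkel, 4228 to 5687 TPM in first basal and 4486 to 5058 TPM in second basal libraries. In each library 84.9% to 91.2% of that sum came from 4 genes, Krtdap, Dmkn, Calm4 and Flg. At the other end, 26 of the 60 genes stayed below 1 TPM in every library, and 27 were at 1 TPM or more in all 9.

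The 43 genes on chromosome 3 run from Lor to Rptn (GRCm38, chr3:92080271-93399442). In this stretch the genes above 1 TPM in every library lay on both sides of the Lce genes. On one side they were Lor, Sprr2a2, Sprr2a3, Sprr1b, Sprr1a and Ivl, with lower Sprr genes lying among them. On the other side they were Flg2, Flg, Hrnr and Rptn. The other Sprr2 genes and the Lce genes between Ivl and Crnn stayed near or below 1 TPM. Sprr3 (0 to 5.01 TPM) and Sprr4 (0 to 6.94 TPM) varied between libraries. Of the 21 Lce genes 19 were below 1 TPM in every library and 2, Lce1j and Lce3a, were listed at 0 in all 9. The highest Lce value was 1.44 TPM, for Lce6a in Basal first 2, and no Lce gene reached the level needed for a test in either main comparison described below. Some near-identical copies could exchange reads: 90.9% of the 125-base stretches of Sprr2a2 transcripts, 91.5% of those of Sprr2a1 and 26.7% of those of Sprr2a3 also occur in another gene, so the split of reads among these 3 is uncertain.

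Merkel cells were first compared with basal keratinocytes. The first and second basal library of each number were averaged on the log2(TPM + 1) scale, giving 3 values against 3. Genes reaching 1 TPM in at least 3 of these 6 values were tested with limma, which took in 29 of the 60. A call needed a Benjamini-Hochberg adjusted p under 0.05, over all 13822 tested genes, and a log2 fold change of at least 1 in either direction. This scale understates the change of genes near 0.

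Of the 29 tested genes 3 were called higher in Merkel cells: Sprr1a, Tgm5 and Crnn. In limma 0 were called lower. An unadjusted p under 0.05 was reached by 6 in the higher and 1 in the lower direction, and an adjusted p under 0.05 by as many. That adjusted p was reached by 1824 genes in the higher and 3941 in the lower direction over all tested genes, or 41.7%. Among all tested genes 6.79% were called higher and 5.27% lower. Over all 60 genes, every Merkel library lay above every basal library for 4 (the 3 called genes and Sprr3) and below for 1 (Sprr2a1). Among all tested genes the shares were 11.7% and 26.2%. Sprr3 and Sprr2a1 were not tested, and Crnn was tested only because its 3 Merkel values reached 1 TPM, so nothing is read from these counts. Sprr2a1 was at 0.32, 0.36 and 0.77 TPM in Merkel and 0.80 to 1.47 TPM in basal libraries. With mitochondrial and small RNA genes removed it was tested, with a log2 fold change of -0.64, short of the fold limit. The median log2 fold change was 0.09 over the tested members and -0.15 over all tested genes. Scaling the libraries by their median ratio moved the median of all genes to 0.02 and that of the members to 0.27. It also moved the calls over all genes from 938 higher and 729 lower to 1091 higher and 442 lower. These counts describe the list, which was not tested as a set.

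The stretches just before the start sites of the 3 called genes, and of Sprr1b, the closest relative of Sprr1a, show what these promoters share and where they differ. Each is the 150 bases before the gene's annotated start, from RefSeq (GRCm38.p6), read 5′ to 3′ on the gene's strand. Capitals mark TATAAA, the TATA box, and TGANTCA, a loosened form of the AP-1 factor motif in which N is any base. Not every form of TGANTCA need be a site for AP-1 factors.
Sprr1a: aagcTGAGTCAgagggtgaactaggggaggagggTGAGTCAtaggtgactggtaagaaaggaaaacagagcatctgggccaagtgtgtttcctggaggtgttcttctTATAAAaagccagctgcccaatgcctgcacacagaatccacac
Sprr1b: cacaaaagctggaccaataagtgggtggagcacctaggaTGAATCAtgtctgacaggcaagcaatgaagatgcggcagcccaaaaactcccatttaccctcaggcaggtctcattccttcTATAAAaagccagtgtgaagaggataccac
Crnn: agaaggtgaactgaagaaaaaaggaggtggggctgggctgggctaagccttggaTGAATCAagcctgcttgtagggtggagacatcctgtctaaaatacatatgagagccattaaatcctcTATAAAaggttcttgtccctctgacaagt
Tgm5: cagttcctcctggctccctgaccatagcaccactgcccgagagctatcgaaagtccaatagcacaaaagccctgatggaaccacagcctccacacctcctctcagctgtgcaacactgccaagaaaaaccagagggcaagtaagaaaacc

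The lines lie at chr3:92485882-92486031 (minus strand) for Sprr1a, chr3:92438780-92438929 (minus strand) for Sprr1b, chr3:93144639-93144788 (plus strand) for Crnn and chr2:121085842-121085991 (minus strand) for Tgm5. Sprr1a holds 2 TGAGTCA matches, beginning 146 and 116 bases before the start, and a TATAAA at 43 bases. Sprr1b and Crnn each hold 1 TGAATCA, at 111 and 96 bases, and a TATAAA at 30 and 29 bases. Tgm5 holds neither motif. These distances are counted from the RefSeq start. For Sprr1a, Sprr1b and Crnn the printed stretch runs into the gene span that GENCODE gives. Distances from the GENCODE start would be shorter for these genes, so the distances are not compared between genes.

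RefSeq promoters (250 bases before to 50 after the start) were matched for 56 of the 60 genes, and both strands were searched. TATAAA occurred in 22 of the 56 (39.3%), against 13.6% of all 32851 promoters. TGANTCA occurred in 18 (32.1%), against 7.81%. The shares of members count genes, which had 60 promoters in all, while the other shares count single promoters, so the units differ. Within the families, 10 of 14 Sprr promoters held TATAAA and 9 held TGANTCA, while of 20 Lce promoters 4 held TATAAA and 0 held TGANTCA. In all 6 motifs were searched, and these 2 were chosen for marking after the shares were seen. Among the other 4 was TGACTCA, a narrower form of TGANTCA (23.2% of the 56 genes against 5.2% of all promoters). On the opposite strand it reads TGAGTCA, so it covers the 2 marked matches of Sprr1a but not the TGAATCA of Sprr1b and Crnn. The rest were CACCC, bound by KLF factors (60.7% against 57.5%), GGAAGT, bound by ETS factors (30.4% against 23.8%), and CATTCC, bound by TEAD factors (19.6% against 14.7%). A match describes letters in the window and does not show binding.

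**Figure D2:**
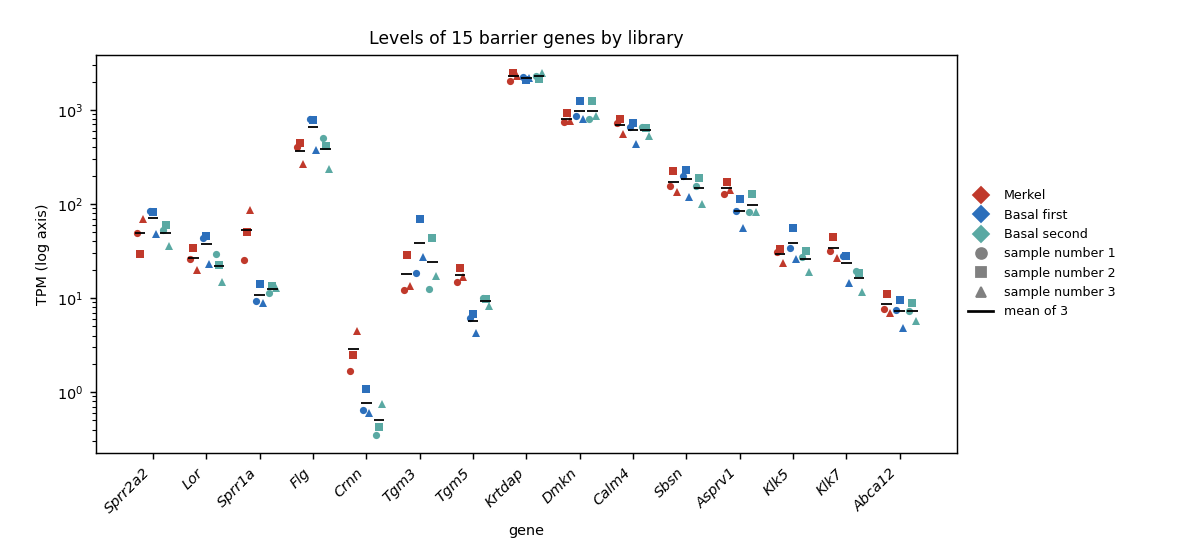
Level in TPM (log axis) of the 15 genes described library by library, coloured by group, with the marker shape giving the sample number and black bars the mean of 3 libraries. The Merkel points of Sprr1a, Crnn and Tgm5 lie above all 6 basal points, while those of the other 12 genes overlap the basal points.

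Among the envelope precursors, Sprr1a (ENSMUSG00000050359, chr3:92483952-92485895) stood apart. Its level was 25.3, 49.96 and 85.3 TPM in Merkel libraries 1 to 3. It was 9.24, 13.9 and 8.94 TPM in first basal and 11.2, 13.4 and 12.8 TPM in second basal libraries. The lowest Merkel value was thus above the highest basal value, and the Merkel libraries differed among themselves by more than the 6 basal libraries did. The log2 fold change was 1.97 ± 0.36 (SE), with an adjusted p of 0.0025 in limma. The call held in all 18 alternatives tried, over a range of 1.56 to 2.41.

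The nearby Sprr genes had different patterns. Sprr1b, a cross-linked precursor of the same small family, was at 8.33 ± 2.56 TPM in Merkel and 8.24 ± 1.33 TPM in basal libraries (SD, n = 3 each). Its log2 fold change was 0.00 ± 0.22 (SE). Where all basal libraries are given together with n = 3, each value is the mean TPM of the first and second library of a number. Such an SD leaves out the spread between first and second, and single basal values of Sprr1b ran from 6.16 to 10.97 TPM. Sprr3, a small proline-rich protein abundant in oral and oesophageal lining, was too low to be tested. It was listed at 0.14, 0.51 and 5.01 TPM in Merkel libraries and at 0.00 to 0.04 TPM in basal libraries, so its Merkel values lay above all basal values, and its mean rested mostly on Merkel 3. Sprr4 was at 1.49 to 4.71 TPM in Merkel libraries and ranged from 0 to 6.94 TPM in basal libraries, with a log2 fold change of 0.67 ± 0.56 (SE) and an adjusted p of 0.38 in limma. It was called without Basal replicate 2 (1.35).

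Loricrin, the main protein of the finished envelope, was at 26.1, 34.2 and 19.8 TPM in Merkel libraries. Its values were 43.7, 46.2 and 22.8 TPM in first basal and 29.4, 22.2 and 14.95 TPM in second basal libraries. The groups overlapped, and the log2 fold change was -0.09 ± 0.26 (SE), with an adjusted p of 0.82 in limma. Sprr2a2, which had the highest mean of the Sprr genes over all 9 libraries but not over the Merkel libraries, where Sprr1a was higher, was at 48.7, 29.4 and 69.0 TPM in Merkel, 83.8, 82.5 and 47.5 TPM in first basal and 53.0, 59.9 and 36.1 TPM in second basal libraries. These groups overlapped too (log2 fold change -0.32 ± 0.30, SE). Involucrin (Ivl), a scaffold of the early envelope, was at 15.97 ± 3.90 TPM in Merkel and 14.99 ± 5.70 TPM in basal libraries (SD, n = 3 each). Cornifelin (Cnfn), another envelope protein, was at 5.89 ± 0.79 and 5.28 ± 1.31 TPM.

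Of the 5 S100-fused type proteins, large S100-domain proteins of which filaggrin is the best known, cornulin (Crnn; ENSMUSG00000078657, chr3:93144787-93149819) was the only one called. It was low everywhere, at 1.67, 2.46 and 4.52 TPM in Merkel libraries, 0.65, 1.07 and 0.60 TPM in first basal and 0.35, 0.43 and 0.75 TPM in second basal libraries. All Merkel values exceeded all basal values. The log2 fold change was 1.19 ± 0.24 (SE), with an adjusted p of 0.0041 in limma. The filter lets a gene this low in basal cells enter only if all 3 Merkel values reach 1 TPM, so it was not tested when a Merkel library was left out or at a filter of 5 TPM, and with a pseudocount of 5 it was not called (0.47).

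Filaggrin, which bundles keratin and is later broken down to moisturising amino acids, was the most abundant of the class. It was at 399.5, 442 and 264 TPM in Merkel libraries. First basal libraries had 797, 782 and 376 TPM, and second basal libraries 507, 410 and 235 TPM. First basal libraries 1 and 2 stood above the others, and the Merkel values overlapped those of both basal groups. The log2 fold change was -0.40 ± 0.30 (SE), with an adjusted p of 0.32 in limma. Within numbers 1 to 3 the Merkel minus basal difference was -0.67, -0.36 and -0.17 on the log2 scale, and with the number as a block the adjusted p was 0.031. Flg had -0.77 against first basal libraries alone and -0.02 against second basal libraries alone, neither of them called. Flg2, Hrnr and Rptn, close relatives of filaggrin, had log2 fold changes of -0.32, -0.02 and 0.42.

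The 3 transglutaminases, which cross-link the envelope, differed from one another. Tgm5 (ENSMUSG00000053675, chr2:121046111-121085841) was at 14.7, 20.7 and 16.8 TPM in Merkel libraries. It was at 6.11, 6.82 and 4.22 TPM in first basal and 10.02, 9.80 and 8.17 TPM in second basal libraries. The Merkel libraries lay above both basal groups, and the second basal libraries lay above the first. The log2 fold change was 1.14 ± 0.17 (SE), with an adjusted p of 0.00078 in limma, and it was not called against second basal libraries alone (0.82) or with a pseudocount of 5 (0.85).

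Tgm1, the membrane-bound transglutaminase, was at 17.003 ± 5.40 TPM in Merkel and 9.12 ± 2.40 TPM in basal libraries (SD, n = 3 each). Its log2 fold change of 0.82 ± 0.24 (SE) had an adjusted p of 0.023 in limma but missed the fold limit. It passed that limit with median-ratio scaling (1.01) and without Merkel replicate 1 (1.02). In other settings its adjusted p in limma rose above the limit for a call. That p was 0.062 against first basal libraries alone (0.065 with the number as a block) and 0.069 with no filter on low values. Without Merkel replicate 2, Merkel replicate 3 or Basal replicate 3 it was 0.064, 0.085 and 0.080. In the remaining settings Tgm1 met the p limit but not the fold limit. Tgm3, which is also prominent in hair follicles, was at 12.1, 28.5 and 13.4 TPM in Merkel, 18.6, 69.7 and 27.2 TPM in first basal and 12.6, 43.6 and 17.2 TPM in second basal libraries. Sample number 2 was the highest in each group, and the groups overlapped (log2 fold change -0.64 ± 0.45, SE; adjusted p 0.29 in limma). Within each number the Merkel value was below the basal mean, and with the number as a block the SE was 0.13 and the adjusted p 0.0021, still short of the fold limit. The differences between the 3 enzymes were not tested against each other.

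**Figure D3:**
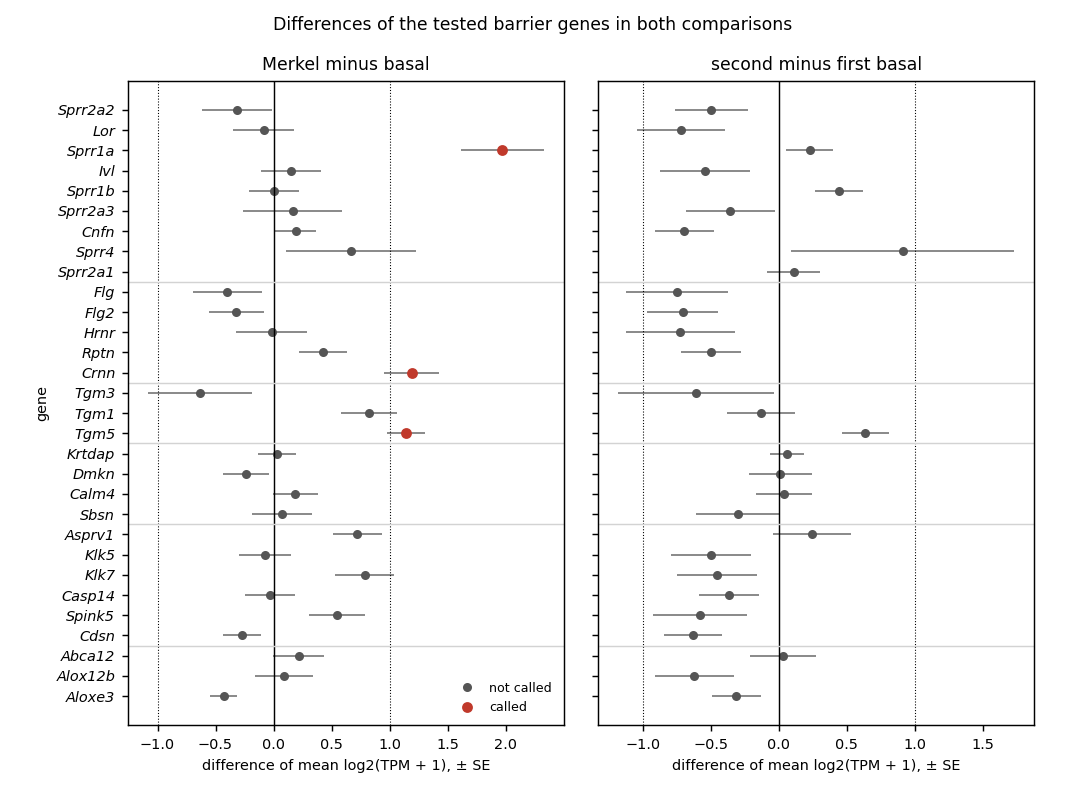
Difference of mean log2(TPM + 1) with its standard error for each barrier gene tested in either comparison, by role, with Merkel minus basal on the left and second minus first basal on the right; dotted lines mark the fold limit. Sprr1a, Crnn and Tgm5 are called on the left and none on the right, where 19 of 29 points lie below 0; Crnn was tested only on the left and Sprr2a1 only on the right.

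The secreted and calcium-binding products held the highest levels. Krtdap, a small secreted protein of differentiating keratinocytes, was at 2047, 2481 and 2300.4 TPM in Merkel libraries. It was at 2259, 2093 and 2185 TPM in first basal and 2264, 2106 and 2467 TPM in second basal libraries. The groups overlapped, and the log2 fold change was 0.03 ± 0.17 (SE), with an adjusted p of 0.91 in limma. Dermokine (Dmkn), another secreted epidermal protein, was at 735, 919 and 768 TPM in Merkel, 850.1, 1244 and 797 TPM in first basal and 807, 1242 and 861 TPM in second basal libraries. Its 2 highest values were the basal libraries of number 2. Calm4, a calmodulin-like calcium-binding protein of the epidermis, was at 717, 801 and 559 TPM in Merkel, 664, 722 and 438 TPM in first basal and 661, 649 and 529 TPM in second basal libraries. Suprabasin (Sbsn), a secreted transglutaminase substrate, was at 155, 224 and 134 TPM in Merkel, 199.8, 232 and 117 TPM in first basal and 154, 187 and 101 TPM in second basal libraries. For Calm4 and Sbsn number 3 was the lowest in each group, and for all 4 genes the Merkel and basal values overlapped.

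Among the proteases, Asprv1, the aspartic protease that trims profilaggrin, was at 126, 173 and 141 TPM in Merkel libraries. It was at 83.2, 114 and 55.3 TPM in first basal and 82.7, 128 and 82.6 TPM in second basal libraries. Only Basal second 2 exceeded a Merkel value, that of Merkel 1. The log2 fold change of 0.72 ± 0.21 (SE) had an adjusted p of 0.024 in limma and stayed under the fold limit.

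Kallikrein 7 (Klk7), which cuts the junctions of shedding cells, was at 31.6, 44.9 and 26.4 TPM in Merkel, 28.2, 27.7 and 14.4 TPM in first basal and 19.3, 18.6 and 11.5 TPM in second basal libraries. Merkel 3 was below the first basal values of numbers 1 and 2, while all Merkel values were above all second basal values. The log2 fold change was 0.78 ± 0.25 (SE), with an adjusted p of 0.034 in limma, and Klk7 was called against second basal libraries alone (1.01). Kallikrein 5 (Klk5), which activates Klk7, was at 30.7, 33.5 and 23.6 TPM in Merkel, 33.6, 55.5 and 26.0 TPM in first basal and 27.4, 32.0 and 18.9 TPM in second basal libraries. Its groups overlapped, and its log2 fold change was -0.07 ± 0.22 (SE). Spink5, the secreted inhibitor of both kallikreins, had 0.55 ± 0.24 (SE; adjusted p 0.10 in limma). Casp14, the caspase of terminal differentiation, had -0.03 ± 0.21 (SE), and Cdsn, the adhesion protein of corneodesmosomes, had -0.27 ± 0.16 (SE).

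In the lipid group, Abca12, the transporter that loads lipids into lamellar granules, was at 7.74, 11.2 and 6.93 TPM in Merkel libraries, 7.55, 9.46 and 4.83 TPM in first basal and 7.27, 8.97 and 5.69 TPM in second basal libraries. The groups overlapped (log2 fold change 0.22 ± 0.22, SE). Alox12b and Aloxe3 act one after the other in oxidising barrier ceramides. Alox12b had a log2 fold change of 0.09 ± 0.25 (SE). Aloxe3 was at 1.15 to 1.27 TPM in Merkel and 1.12 to 2.64 TPM in basal libraries. Its log2 fold change of -0.43 ± 0.12 (SE; adjusted p 0.019 in limma) was the only negative one with an adjusted p under 0.05. With Sprr1a, Tgm5, Crnn, Tgm1, Klk7 and Asprv1 that made 7 of 29 tested members, against 41.7% of all tested genes. The sample number as a block raised that count to 12, adding Tgm3, Flg, Spink5, Rptn and Sprr4, and kept the same 3 calls. The share of all tested genes under that block is not given here, so nothing is read from the rise.

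Keratins of wet and stressed linings were set beside the called genes after their values were seen. Krt13 and Krt4, the keratin pair of oral and oesophageal lining, were higher in Merkel libraries, at 114, 107 and 406 TPM for Krt13 and 70.8, 92.6 and 268 TPM for Krt4. In basal libraries Krt13 was at 0.56 to 1.92 TPM and Krt4 at 1.44 to 3.51 TPM. Krt6a, a keratin of stressed and follicular epidermis, was at 117, 146 and 401 TPM in Merkel and 18.9 to 88.5 TPM in basal libraries. Krt16, the usual partner of Krt6a in stressed epidermis, was not called, at 41.9 to 63.2 TPM in Merkel and 58.7 to 142.9 TPM in basal libraries. Merkel 3 held the highest of the 9 values of Sprr1a, Sprr3, Crnn, Krt13, Krt4 and Krt6a. It also held that of Tgm1, Spink5, Sprr2a3, Rptn and Sprr2d, which made 8 of the 34 barrier genes that reached 1 TPM anywhere. Basal first 2 held the highest value for 13 of the 34, and Merkel 2 for 6. The shares over all genes are not given, so nothing is read from these counts. Whether the same cells carried the transcripts that were highest in Merkel 3 was not tested.

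**Figure D4:**
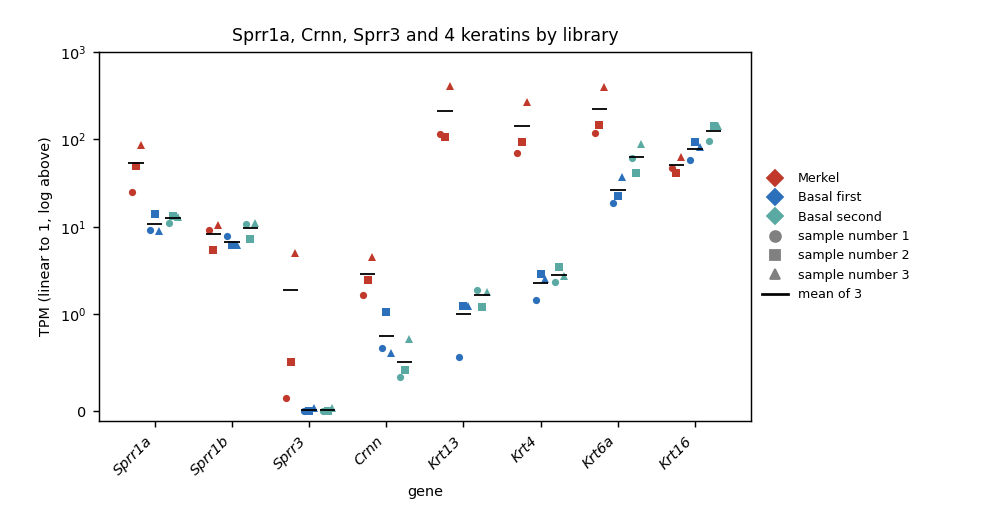
Level in TPM (linear to 1, log above) of Sprr1a, Sprr1b, Sprr3, Crnn and 4 keratins in each library, coloured by group with marker shapes for the sample number and black bars for the mean of 3 libraries. Merkel 3 (triangle) is the highest point of Sprr1a, Sprr3, Crnn, Krt13, Krt4 and Krt6a, and Sprr1b shows no gap between groups.

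Markers of other cell types also moved with the Merkel comparison. Of 9 hair follicle markers 2 were higher in Merkel libraries (summed 2201 to 2545 TPM, against 826 to 954 TPM in first and 1796 to 2145 TPM in second basal), among them Krt79, a keratin of the follicle funnel. All 5 melanocyte markers were higher (145 to 203 TPM, against 13.7 to 31.1 and 99.3 to 142.7 TPM). Of 7 fibroblast markers 4 were higher (164 to 261 TPM, against 36.0 to 103.0 and 102 to 253 TPM), with Dpt below 1 TPM everywhere. Of 5 immune markers 3 were lower (28.6 to 54.1 TPM, against 234 to 564 and 21.04 to 35.7 TPM), with Cd3e below 1 TPM everywhere. Of 5 cycling markers 2 were lower (163 to 213 TPM, against 262 to 281 and 420 to 478 TPM). Endothelial markers summed to at most 3.79 TPM, with Cdh5 and Kdr below 1 TPM everywhere, and no red blood cell marker was called (73.4 to 655 TPM over all libraries). The part of these cells in the levels of Sprr1a, Tgm5 and Crnn was not tested.

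The second basal libraries were then compared with the first, on the same scale and with the same rule, over 13477 tested genes. Most of the barrier genes leaned lower in the second, but none was called. In limma 0 of 29 tested members were called in either direction. An unadjusted p under 0.05 was reached by 2 in the higher (Tgm5, Sprr1b) and 3 in the lower direction (Cnfn, Cdsn, Flg2). The share of all genes at that unadjusted p is not given, so nothing is read from these counts. No member reached an adjusted p under 0.05, against 454 genes higher and 650 lower over all tested genes. Among all tested genes 0.675% were called higher and 3.67% lower. The log2 difference was below 0 for 19 of the 29, against 39.9% of all tested genes. Its median was -0.37, against 0.06 over all genes. With median-ratio scaling the difference was below 0 for 23 of the 29. Its median was then -0.43, against -0.0002 over all genes.

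The lean was present in each sample number, for 24, 21 and 19 of the 29 genes in numbers 1 to 3. For 16 of the 29 the second library was below the first in all 3 numbers, against 20.0% of all tested genes. For 3 it was above in all 3, a count whose share over all genes is not given. The genes are not independent of one another, so the counts in this comparison describe 3 numbers and not 29 tests. Every second library lay below every first library for 2 tested members, Cnfn and Cdsn, against 10.1% of all tested genes, and for the untested Lce6a. With the sample number as a block, 15 members had an adjusted p under 0.05 and a negative difference, against 7.43% of all tested genes. One member, Tgm5, had an adjusted p under 0.05 and a positive difference, and again none passed the fold limit. The median moved to -0.56 without Basal first replicate 3 and to -0.21 without Basal first replicate 2, and it was -0.06 with no filter on low values.

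The S100-fused class lay lowest. Filaggrin had a log2 difference of -0.75 ± 0.38 (SE), Hrnr -0.73 ± 0.40, Flg2 -0.71 ± 0.26 and Rptn -0.50 ± 0.22. Loricrin, which binds into the same envelope, had -0.72 ± 0.32. In first basal libraries the mean filaggrin level was 651 ± 239 TPM, and in second basal libraries it was 384 ± 138 TPM (SD, n = 3 each). Cornifelin had means of 6.76 ± 1.58 and 3.80 ± 1.03 TPM (SD, n = 3 each) and a log2 difference of -0.69 ± 0.22 (SE; adjusted p 0.11 in limma).

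The secreted and calcium-binding products had a median of 0.02. Krtdap had a log2 difference of 0.06 ± 0.13 (SE), Dmkn 0.01 ± 0.23 and Calm4 0.04 ± 0.20. Sbsn, the other gene of the class, had -0.30 ± 0.31 (SE) and was lower in the second library of each number. With the number as a block its adjusted p in limma was 0.025. The keratins Krt1 and Krt10 had 0.05 ± 0.31 and 0.14 ± 0.27. Tgm5 had 0.64 ± 0.17 (SE; adjusted p 0.076 in limma), and Sprr1b 0.44 ± 0.17. Between first and second basal libraries 3 of 5 immune markers were lower in the second, all 5 melanocyte markers were higher, and of 9 hair follicle markers 3 were higher and 1 lower. Of 7 fibroblast markers 1 was higher. Their part in the barrier genes' difference was not tested.

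The 9 libraries also differed by sample number, a pattern examined after the values were seen. Number 3 held the lowest value in all 3 groups of libraries for 11 of the 29 genes tested in the Merkel comparison, against 2.37% of all tested genes. These were Lor, Flg, Hrnr, Calm4, Sbsn, Klk5, Klk7, Casp14, Cdsn, Abca12 and Alox12b. Number 2 held the highest value in all 3 groups for 10 genes, against 4.6% of all tested genes. These were Ivl, Cnfn, Sprr4, Tgm3, Dmkn, Sbsn, Asprv1, Klk5, Casp14 and Abca12. For number 3 the pattern was weaker in Merkel libraries. Number 3 held the lowest Merkel value for 12 of the 29 and number 1 for 13. In first and second basal libraries number 3 held the lowest value for 23 and 20. The genes are not independent of one another, so the counts describe 3 numbers and not 29 tests.

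Krt1 and Krt10 had the same order, with number 2 highest and number 3 lowest in each group. Krt1 was at 3099, 4695 and 2284 TPM in Merkel libraries 1 to 3, at 3325, 4312 and 2237 TPM in first basal and at 3034, 4618 and 2521 TPM in second basal libraries. Krt77, a suprabasal keratin, was at 64.8, 72.0 and 32.2 TPM in the 3 libraries of number 2 and at 4.37 to 16.1 TPM in the other 6. Krtdap did not follow this order, and Sprr1a was among 8 of the 29 genes with their highest Merkel value in number 3.

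**Figure D5:**
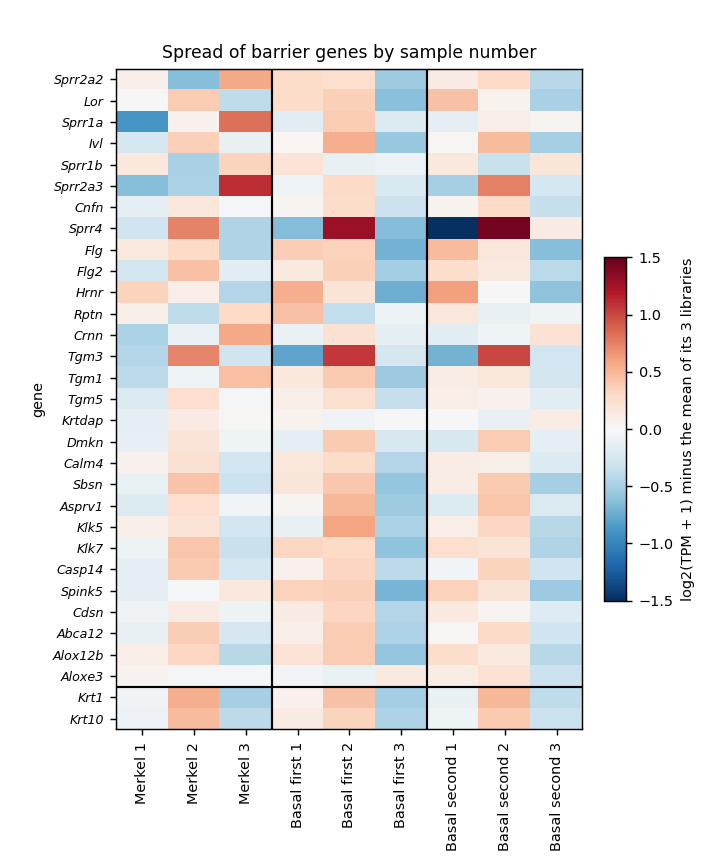
Deviation of log2(TPM + 1) in each library from the mean of the 3 libraries of its group, for the 29 genes tested in the Merkel comparison and, below the line, Krt1 and Krt10. Red is above and blue below the group mean. The columns of number 3 are mostly blue and those of number 2 mostly red. Among Merkel libraries 8 of the 29 genes, Sprr1a, Sprr2a3 and Crnn among them, are highest in Merkel 3.

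The related barrier genes were read from the same fits. Of 16 differentiation regulators, all tested, 1 was higher and 1 lower in Merkel cells. Prdm1, a repressor involved in late keratinocyte differentiation, was at 5.28 ± 2.14 TPM in Merkel and 1.77 ± 0.55 TPM in basal libraries (SD, n = 3 each; log2 fold change 1.15 ± 0.25, SE). It was not called without Merkel replicate 1 (0.90) or with a pseudocount of 5 (0.59). Zfp36, an RNA-decay factor and the most abundant of the list, was at 99.3 ± 40.8 and 235 ± 59.8 TPM (SD, n = 3 each; -1.28 ± 0.32, SE), and was not called without Merkel replicate 2 (-0.91). Among the 27 tested of 31 barrier lipid genes only Abhd12b was called, lower in Merkel cells, at 1.29 ± 0.28 against 4.38 ± 0.19 TPM (SD, n = 3 each; -1.21 ± 0.14, SE). It was not called against second basal libraries alone (-0.92) or with a pseudocount of 5 (-0.57). Degs1, a ceramide desaturase and the most abundant of that list, was at 64.0 ± 5.96 and 71.9 ± 5.71 TPM (SD, n = 3 each).

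Of 8 plakin and desmosome genes, which anchor the envelope to the cell's junctions, none was called in either comparison, and their median log2 fold change was -0.50 in Merkel cells. Perp, the most abundant of them, was at 1114 ± 97.6 TPM in Merkel and 1143 ± 170.1 TPM in basal libraries (SD, n = 3 each). Of 22 tested genes among the other proteases and inhibitors 2 were lower in Merkel cells. Klk10, a further kallikrein, was at 16.97 ± 2.87 against 46.9 ± 3.70 TPM (SD, n = 3 each; -1.42 ± 0.14, SE). Stfa1, a stefin-type protease inhibitor, was at 379 ± 24.1 against 867 ± 101.0 TPM (SD, n = 3 each; -1.18 ± 0.14, SE), and was not called with median-ratio scaling (-0.99). Stfa3, the most abundant of the list, was at 3329 ± 1133 and 5212 ± 2052 TPM (SD, n = 3 each) and was not called. None of the suprabasal keratins was called in either comparison, 5 of 6 being tested in the first and 6 in the second.

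Within the complex on chromosome 3 the S100 genes went their own ways. Of 10 tested S100 genes 2 were higher in Merkel cells. S100a1, a calcium-binding protein, was at 33.6 ± 1.70 TPM in Merkel, 14.9 ± 2.05 TPM in first basal and 6.17 ± 0.84 TPM in second basal libraries (SD, n = 3 each). It was called higher in Merkel cells (1.70 ± 0.11, SE) and lower in second basal libraries (-1.15 ± 0.14, SE), the latter not with a pseudocount of 5 (-0.83). S100a13 was higher in Merkel cells (1.12 ± 0.15, SE), though not against first basal libraries alone (0.90) or with a pseudocount of 5 (0.96). S100a4 was lower in second basal libraries (-2.90 ± 0.51, SE), at 135 ± 15.7 TPM in first and 21.8 ± 19.5 TPM in second basal (SD, n = 3 each). Its call ended in 4 of the 6 fits that left out 1 library (the first or second basal library of number 1 or 3), where the difference ranged from -2.97 to -2.50, and with no filter on low values. S100a10, the most abundant of the list, was at 349.5 ± 71.1 TPM in Merkel and 474 ± 23.9 TPM in basal libraries (SD, n = 3 each) and was not called. Of 4 other tested genes of the complex only Pglyrp4, which binds bacterial cell wall, was called, lower in Merkel cells at 2.63 ± 0.46 against 17.7 ± 8.44 TPM (SD, n = 3 each; -2.26 ± 0.27, SE).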

How the data were processed

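Expression was measured as TPM per gene in 9 libraries, as deposited by the authors in 1 table. Per the labels' protocols, a stranded kit for total RNA was used, with paired reads of 125 bases. These were processed with Trimmomatic, STAR and RSEM on mm10, per the submitters' processing notes. The sources used here do not give versions, annotation or strandedness of the counting. Symbols and coordinates come from GENCODE M21 (GRCm38, the same build as mm10).

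Values were tested as log2(TPM + 1) with limma 3.58.1 in R 4.3.3 (variance trend, two-sided), after a check on simulated data. Python 3.11.15, pandas 2.3.3 and matplotlib 3.10.9 made the tables and plots. Samples with the same number deviated together from their group means (correlations of Merkel with mean basal values 0.39, 0.36 and 0.20; first with second basal 0.47, 0.53 and 0.38), so the number was also fitted as a block. The pseudocount, filter, scaling, basal libraries and each replicate were varied as alternatives.

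Library-by-library values are given for Lor, Flg, Krtdap, called genes, the 12 highest by mean and the highest of each role; of each related list, up to 3 called genes and the most abundant are named. Members, lists and rules were chosen with earlier results of these data known. Uncertain copies were to be found by protein identity; shared 125-base transcript stretches were used instead.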

Additional observations from a re-analysis of the deposited data

How the results depend on the processing

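Depth is unknown, so low genes such as Crnn and Sprr4 are the least certain. With the sample number as a replicate block, 3 members were again called higher in Merkel cells and 0 lower, and 0 in either direction between basal libraries; the block changed no other call of a named barrier gene. A block with first or with second basal libraries alone, both added after seeing the data, called 4 (Sprr1a, Tgm5, Crnn and Sprr4, the last at 1.12) and 3 (Sprr1a, Crnn and Klk7). Called members in the Merkel comparison fell to 1 with a pseudocount of 5 and ranged from 2 to 4 when 1 replicate was left out. No member was called lower there, or in either direction between basal libraries, in any alternative. Over all genes, calls higher in Merkel cells were 377 with a pseudocount of 5 and 486 with a filter at 5 TPM, and 359 to 971 with 1 replicate left out. Calls lower were 1281 with a pseudocount of 0.1, 186 with 5, 449 with the filter at 5 TPM, 442 with median-ratio scaling, and 568 to 849 with 1 replicate left out. Between basal libraries, calls higher were 147 and 25 with pseudocounts of 0.1 and 5, 58 with the filter at 5 TPM, 141 without mitochondrial and small RNA genes, and 48 to 103 with 1 library left out. Calls lower were 223 with a pseudocount of 5, 253 with the filter at 5 TPM, and 178 to 480 with 1 library left out. Fewer samples were fitted in the leave-out runs and fewer genes at 5 TPM; for the other settings the cause was not tested.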
